A study of Mus musculus with 16 samples.

Results

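The genes described here encode the subunits of the constitutive proteasome. They were chosen by name: probe sets annotated to a single symbol that starts with Psma, Psmb, Psmc or Psmd and ends in a number, without Psmb8, Psmb9 and Psmb10, which encode the inducible catalytic subunits. This gave 74 of the 45101 probe sets on the array and 36 of the 18194 genes with a single symbol. Where a gene had several, the one with the highest log2 average over the 16 arrays stood for it. The 36 genes comprise 8 Psma, 8 Psmb, 6 Psmc and 14 Psmd genes. Not all of them fit the name constitutive: Psmb11 encodes a catalytic subunit known from cortical thymic epithelium, Psma8 an alpha subunit known from the testis, and Psmd5, Psmd9 and Psmd10 encode chaperones that help to assemble the base and are not part of the finished particle.

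The proteasome degrades proteins that carry ubiquitin chains. Its core particle stacks outer rings of alpha subunits on inner rings of beta subunits, and the beta subunits encoded by Psmb6, Psmb7 and Psmb5 hold the caspase-like, trypsin-like and chymotrypsin-like active sites. The regulatory particle consists of a base, where the ATPases encoded by the Psmc genes unfold substrates, and a lid, where the deubiquitinase encoded by Psmd14 removes the ubiquitin. In lymphoid cells, Psmb9, Psmb10 and Psmb8 can take the place of the constitutive catalytic subunits and form the immunoproteasome, which is known for producing peptides for antigen presentation.

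Thymocytes were sorted from PKBalpha-/- mice and their PKBalpha+/+ littermates, in 4 pairs, all on a C57Bl/6 backcross. The knockout is of the germline, so that every cell of the animal lacks Akt1, the gene encoding PKBalpha. Each of the 8 animals gave 1 array of immature CD8 single positive cells (ISP8, CD4-, CD8+ and CD3-). It also gave 1 of the earlier double negative 3 stage (DN3, lineage-, CD25+ and CD44-). The paper places DN3 just ahead of beta-selection, the checkpoint for a productive TCRbeta chain, and ISP8 just ahead of the double positive stage. The stages are therefore not adjacent. Each of the 4 groups PKBalpha-/- ISP8, PKBalpha+/+ ISP8, PKBalpha-/- DN3 and PKBalpha+/+ DN3 holds 4 arrays. Pair 1 was female and 3 weeks old, pair 2 male and 3 weeks, pair 3 male and 2 weeks, and pair 4 female and 5 weeks. Values are GC-RMA values on a linear scale, and changes are differences of their log2 values.

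The labels were borne out by Akt1, whose main probe set averaged 5.78 ± 0.98 in PKBalpha-/- ISP8 against 1969 ± 248 in PKBalpha+/+ ISP8 cells, and 9.45 ± 11.9 in PKBalpha-/- DN3 against 1541 ± 361 in PKBalpha+/+ DN3 cells (SD, n = 4 each). In ISP8 against DN3, 3 of 3 measured ISP8 markers passed as higher (Cd8a, Cd8b1 and Cd4, by 2.36 to 4.88 on the log2 scale), and 7 of 8 DN3 markers as lower, with Il2ra, the CD25 gene used in the sort, at -5.41. All 17 measured proliferation genes were also higher in ISP8 cells, with a median change of 1.18, and their summed value was 204160 to 220945 in ISP8 against 96051 to 129324 in DN3 cells over both genotypes. Of the markers of other cells, those of B cells had 1 of 5 higher and 2 lower, those of dendritic cells and macrophages 4 of 9 higher and 3 lower, those of NK and innate lymphoid cells 2 of 4 higher and 1 lower, those of mature T cells 1 of 5 higher, those of cortical thymic epithelium 1 of 11 higher and 2 lower, and the single erythroid gene tested did not pass. Over all probe sets tested, 17.5% passed as higher and 24.7% as lower. Summed over the list, B cell markers ranged from 393 to 673 in ISP8 and 1297 to 1618 in DN3 cells, dendritic and macrophage markers from 754 to 2682 and 2221 to 5500, NK and innate markers from 12368 to 21370 and 12519 to 17828, mature T markers from 829 to 1382 and 491 to 756, epithelial markers from 3622 to 4142 and 2548 to 3500, and erythroid markers from 18.2 to 124 and 6.69 to 87.2, ISP8 before DN3 in each case. No marker was listed at 0, but Itgam, Cd79a, Foxn1 and Hba-a1 averaged under 35 in every group. The log2 ratio of the 3' to the 5' control probe sets averaged 2.37 in ISP8 and 2.81 in DN3 arrays for actin (higher in ISP8 in 1 of 8 animals) and 1.87 and 1.84 for Gapdh. The running number in the array titles is 1 to 8 for ISP8 and 9 to 16 for DN3, so whatever it stands for cannot be told apart from the subset. The part of these measures in the subset differences below was not tested, and in sorted bulk cells fewer cells of a type and less RNA per cell cannot be told apart.

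To ask how the proteasome genes differ between the stages, ISP8 was compared with DN3 within the 8 animals. Of the 36 genes, 35 passed the filter on low values, and 29 of them were higher in ISP8 cells, 1 was lower and 5 did not pass the test. The median change was 0.40 on the log2 scale, or 1.32-fold, with a range of -0.70 to 0.79. Across all 32831 probe sets tested, 17.5% passed as higher and 24.7% as lower, and the median change was -0.07. After a further quantile normalization 6942 probe sets passed as higher and 6600 as lower, with a median of 0.03, and the members' median lay 0.24 above that of all probe sets, against 0.47 above it in the values as deposited. Among the 6731 probe sets with a mean log2 value of at least 10, a level that 32 of the 36 genes reached, 39.9% were higher and the median was 0.07, against 28 of those 32 genes higher (limma, animal as a block, Benjamini-Hochberg adjusted p under 0.05). This comparison by level was added after the data had been seen.

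The shift was seen in every animal. The median change of the 35 genes was 0.33, 0.32, 0.39 and 0.42 in the PKBalpha-/- animals of pairs 1 to 4, and 0.44, 0.49, 0.31 and 0.55 in the PKBalpha+/+ animals. Between 28 and 33 of the 35 genes were higher in ISP8 in any one animal. In 25 of 35 genes the value was higher in 8 of 8 animals, against 12.4% of all probe sets tested, and in 18 of 35 all ISP8 values lay above all DN3 values, against 6.52% of all probe sets tested.

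**Figure D1:**
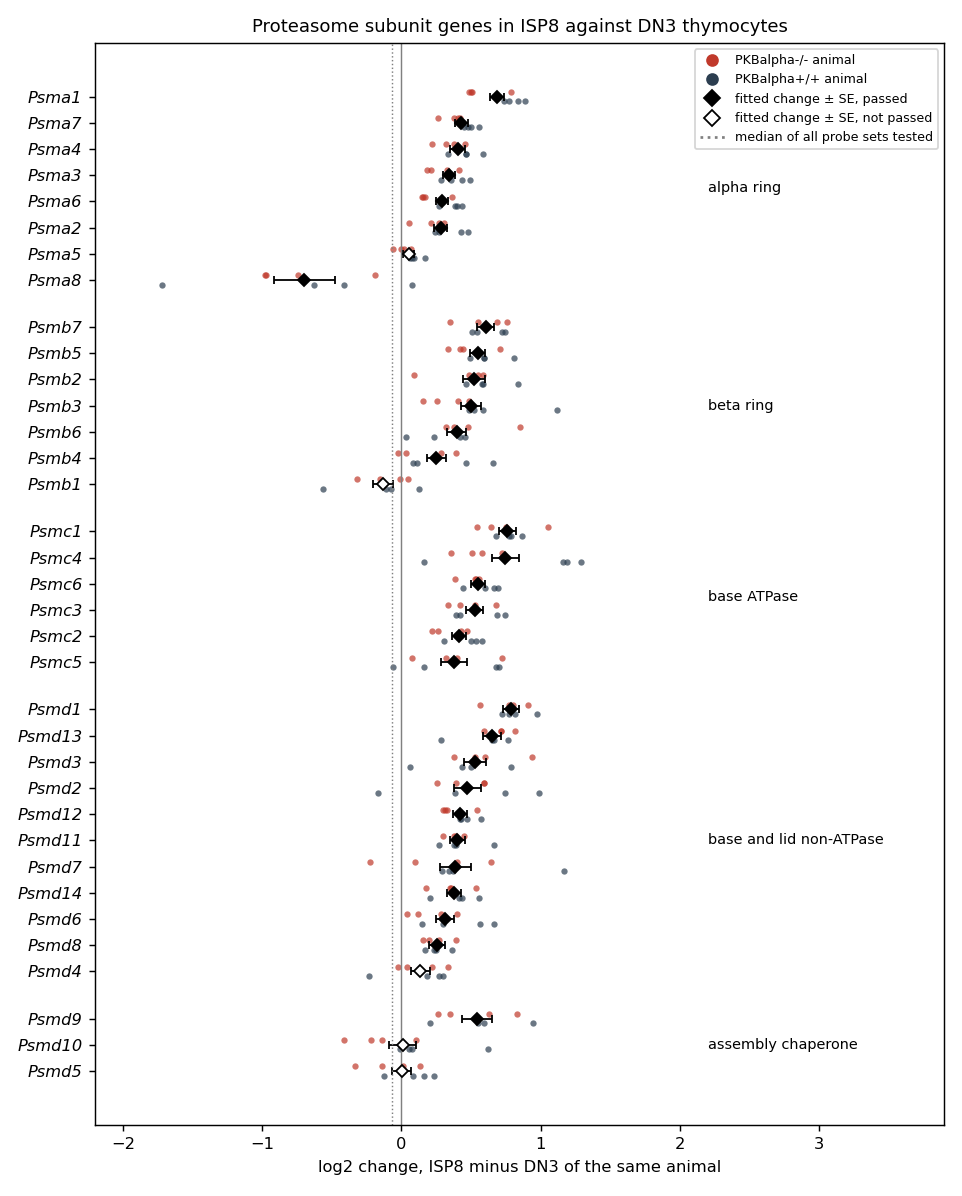
Change of each of the 35 tested genes in ISP8 against DN3 cells, on the log2 scale (x axis), grouped by subcomplex (y axis). Small points are the 4 PKBalpha-/- and 4 PKBalpha+/+ animals, diamonds the fitted change with its standard error, filled where it passed, and the dotted line the median of all probe sets tested (-0.07). Of the 35 diamonds, 29 are filled to the right of 0 and 1 (Psma8) to the left.

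Because the members moved together, RefSeq promoters (GRCm38.p6) were searched on both strands for sequences known from proteasome and housekeeping promoters. Each spanned 250 bases before and 50 bases after its start site. A promoter was given for 29 of the 36 genes, and 2 of these had 2 promoters. A gene was counted when any of its promoters held a match. The shares set beside these counts are of single promoters, those of the members included. Psma8, Psmb1, Psmb2, Psmb7, Psmc3, Psmd3 and Psmd7 were not analysed here. The core of the antioxidant response element, TGACNNNGC, which is bound by the factors encoded by Nfe2l1 and Nfe2l2 with small Maf partners, was present in 5 of 29 genes (17.2%), against 12.4% of all 32851 promoters and 14.6% of the 4521 promoters of genes with a mean log2 value of at least 10. Of the 29 genes with a promoter, 24 were higher in ISP8, and all 5 genes with a match were among these. Whether a match goes with the change was not tested. The 5 sites are shown because both Psmb5 and Psmb6, which encode catalytic subunits, carry one close to the start. Capitals mark the match. Where it lies on the opposite strand of the gene, as in Psmc6 and Psmd12, the reverse complement is shown.
Psmb5, chr14:54618024-54618052, minus strand: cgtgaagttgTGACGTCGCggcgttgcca
Psmb6, chr11:70525338-70525366, plus strand: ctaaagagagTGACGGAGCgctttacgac
Psmc6, chr14:45329587-45329615, plus strand: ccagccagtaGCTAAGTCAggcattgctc
Psmd9, chr5:123228149-123228177, plus strand: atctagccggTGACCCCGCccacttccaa
Psmd12, chr11:107479278-107479299, plus strand: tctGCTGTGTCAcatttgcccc

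The first base of the match lay at -47 in Psmb5, -9 in Psmb6, -227 in Psmc6, -31 in Psmd9 and -247 in Psmd12, counted from the start site of the promoter. In Psmb6 that site is not the gene start, which lies at chr11:70525324, before the stretch shown. In Psmd9 the match overlapped a GGGCGG match on the other strand, the only overlap between motifs in these promoters. The ETS motif CCGGAAG was found in 10 of 29 genes (34.5%), against 8.86% of all promoters and 22.7% of those of high level. GGGCGG, the SP1 box, was in 62.1% of the genes, against 35.7% and 66.2%, and CCAAT in 41.4%, against 37.4% and 37.2%. The NRF1 motif was found in Psma2 alone (3.45%, against 0.971% and 2.65%), the YY1 motif in Psmb6 alone (3.45%, against 0.633% and 1.99%), and the E-box CACGTG in Psma4 and Psmd9 (6.9%, against 7.15% and 11.3%). Of the 24 genes higher in ISP8 and the other 5, the ETS motif was in 9 and 1, the SP1 box in 16 and 2, and CCAAT in 9 and 3. The ETS matches of 4 genes are shown, 3 from genes that were higher in ISP8 and 1 from Psmd4, which did not pass. In Psmc1 the match is on the opposite strand.
Psmc1, chr12:100110164-100110190, plus strand: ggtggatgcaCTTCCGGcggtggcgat
Psmc6, chr14:45329714-45329740, plus strand: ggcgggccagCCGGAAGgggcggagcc
Psmd13, chr7:140882378-140882404, plus strand: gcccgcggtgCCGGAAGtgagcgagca
Psmd4, chr3:95042723-95042749, minus strand: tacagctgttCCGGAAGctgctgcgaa

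Psmd1 and Psma5 are shown over the 250 bases before the start because their values lay far apart, Psmd1 with the largest change of the 35 tested genes and Psma5 with a change that did not pass. Neither of these stretches before the start held any of the 7 motifs, so no letter is in capitals. Psmd1 is still counted above among the genes with an SP1 box. Its GGGCGG match was found only when the 50 bases after the start were included.
Psmd1, chr1:86064369-86064618, plus strand: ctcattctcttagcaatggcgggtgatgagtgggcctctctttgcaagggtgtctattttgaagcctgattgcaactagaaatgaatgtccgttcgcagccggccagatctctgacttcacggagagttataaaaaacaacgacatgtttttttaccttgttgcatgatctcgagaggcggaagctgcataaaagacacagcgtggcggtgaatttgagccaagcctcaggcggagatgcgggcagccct
Psma5, chr3:108256676-108256925, plus strand: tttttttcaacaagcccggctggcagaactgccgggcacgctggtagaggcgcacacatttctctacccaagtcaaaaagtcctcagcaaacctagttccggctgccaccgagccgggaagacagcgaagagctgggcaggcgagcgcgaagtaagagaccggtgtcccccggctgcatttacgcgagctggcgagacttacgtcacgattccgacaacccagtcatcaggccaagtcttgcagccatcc

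The genes of the base ATPases, the ring of motor subunits, were higher in 6 of 6 cases with a median change of 0.54. Psmc1, which encodes an ATPase of this ring, read 4697, 5439, 5539 and 4945 in PKBalpha-/- ISP8 and 4636, 4818, 5637 and 5143 in PKBalpha+/+ ISP8 cells, against 3231, 2627, 3540 and 2940 in PKBalpha-/- DN3 and 2902, 2649, 3308 and 2982 in PKBalpha+/+ DN3 cells. Every ISP8 array lay above every DN3 array, and the change was 0.76 ± 0.06 (SE, adjusted p = 9.65e-08). Psmc6, another of the 6 ATPase genes and one with both an antioxidant and an ETS match, read 7990, 8628, 8306 and 8034 in PKBalpha-/- ISP8 and 7859, 9113, 8674 and 8249 in PKBalpha+/+ ISP8 cells, against 5427, 6616, 5730 and 5575 in PKBalpha-/- DN3 and 5786, 6020, 5375 and 5217 in PKBalpha+/+ DN3 cells. Again the subsets did not overlap, with a change of 0.55 ± 0.05 (adjusted p = 2.51e-07).

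Psmc4 was the ATPase gene with the largest spread. It read 11036, 11100, 11316 and 8404 in PKBalpha-/- ISP8 and 11259, 12541, 11144 and 10124 in PKBalpha+/+ ISP8 cells, against 7784, 6736, 7560 and 6565 in PKBalpha-/- DN3 and 5032, 5509, 9938 and 4141 in PKBalpha+/+ DN3 cells. The PKBalpha+/+ DN3 array of pair 3 stood at 9938, within the range of the ISP8 arrays, and the subsets overlapped there and at the PKBalpha-/- ISP8 array of pair 4. The change was 0.75 ± 0.10 and was positive in 8 of 8 animals (adjusted p = 1.13e-05). Psmc3 (0.53), Psmc2 (0.41) and Psmc5 (0.38) were higher by less.

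The other base and lid genes were higher in 10 of 11 cases, with a median change of 0.40. Psmd1 encodes the large scaffold subunit of the base and had the largest change of all 35 genes. It read 5831, 5889, 6395 and 5058 in PKBalpha-/- ISP8 and 6237, 6583, 6644 and 5148 in PKBalpha+/+ ISP8 cells, against 3107, 3382, 4332 and 2968 in PKBalpha-/- DN3 and 3542, 3994, 3892 and 2627 in PKBalpha+/+ DN3 cells. The subsets did not overlap, the lowest arrays of each group were those of pair 4, and the change was 0.79 ± 0.06 (1.73-fold, adjusted p = 2.09e-08). Psmd13, a lid subunit, read 3635, 3492, 3198 and 3553 in PKBalpha-/- ISP8 and 3784, 2865, 3200 and 3022 in PKBalpha+/+ ISP8 cells, against 2210, 2319, 1953 and 2021 in PKBalpha-/- DN3 and 2413, 2353, 2016 and 1778 in PKBalpha+/+ DN3 cells. Its change was 0.65 ± 0.07 without overlap (adjusted p = 1.06e-06).

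Psmd3 (0.53), Psmd2 (0.47), Psmd12 (0.42), Psmd11 (0.40), Psmd7 (0.39), Psmd14 (0.38), Psmd6 (0.31) and Psmd8 (0.25) were also higher. Psmd4, which encodes a ubiquitin receptor, was the exception, with a change of 0.14 ± 0.07 that did not pass (adjusted p = 0.132), and it passed without pair 2 (0.22, adjusted p = 0.0178).

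Of the beta ring genes, 6 of 7 tested were higher, with a median change of 0.50, and all 3 catalytic genes were among them. Psmb5 read 8189, 9338, 8896 and 10352 in PKBalpha-/- ISP8 and 10273, 10169, 9015 and 9582 in PKBalpha+/+ ISP8 cells, against 6118, 7403, 6543 and 6350 in PKBalpha-/- DN3 and 6810, 6752, 6411 and 5463 in PKBalpha+/+ DN3 cells. Psmb7 read 4491, 5212, 5434 and 5138 in PKBalpha-/- ISP8 and 5398, 5387, 5915 and 4274 in PKBalpha+/+ ISP8 cells, against 3531, 3568, 3376 and 3043 in PKBalpha-/- DN3 and 3712, 3797, 3529 and 2594 in PKBalpha+/+ DN3 cells. For both genes the ISP8 arrays lay above all DN3 arrays, with changes of 0.55 ± 0.05 (adjusted p = 7.07e-07) and 0.61 ± 0.06 (adjusted p = 8.22e-07).

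Psmb6, the third catalytic gene, read 8832, 8611, 11065 and 9211 in PKBalpha-/- ISP8 and 9254, 9434, 6912 and 8233 in PKBalpha+/+ ISP8 cells, against 6786, 6889, 6134 and 6626 in PKBalpha-/- DN3 and 7867, 6892, 6764 and 6160 in PKBalpha+/+ DN3 cells. Here the subsets overlapped, since the PKBalpha+/+ ISP8 array of pair 3 stood at 6912. The change was 0.40 ± 0.07 and positive in 8 of 8 animals (adjusted p = 0.000126). Psmb2 (0.52), Psmb3 (0.50) and Psmb4 (0.25) were higher as well, although Psmb4 did not pass without pair 2 (adjusted p = 0.0560) or after a further quantile normalization of the values (0.09, adjusted p = 0.281).

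Psmb1, a noncatalytic beta subunit, was the only member of the ring that did not pass. It read 4772, 4788, 4281 and 4729 in PKBalpha-/- ISP8 and 4905, 4898, 3055 and 4558 in PKBalpha+/+ ISP8 cells, against 4818, 5331, 5332 and 4573 in PKBalpha-/- DN3 and 5156, 5278, 4510 and 4178 in PKBalpha+/+ DN3 cells. The ranges overlapped, with pair 3 lowest in both ISP8 groups, and the change of -0.13 ± 0.07 did not pass (adjusted p = 0.161), whereas it did after quantile normalization (-0.25, adjusted p = 0.0113).

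**Figure D2:**
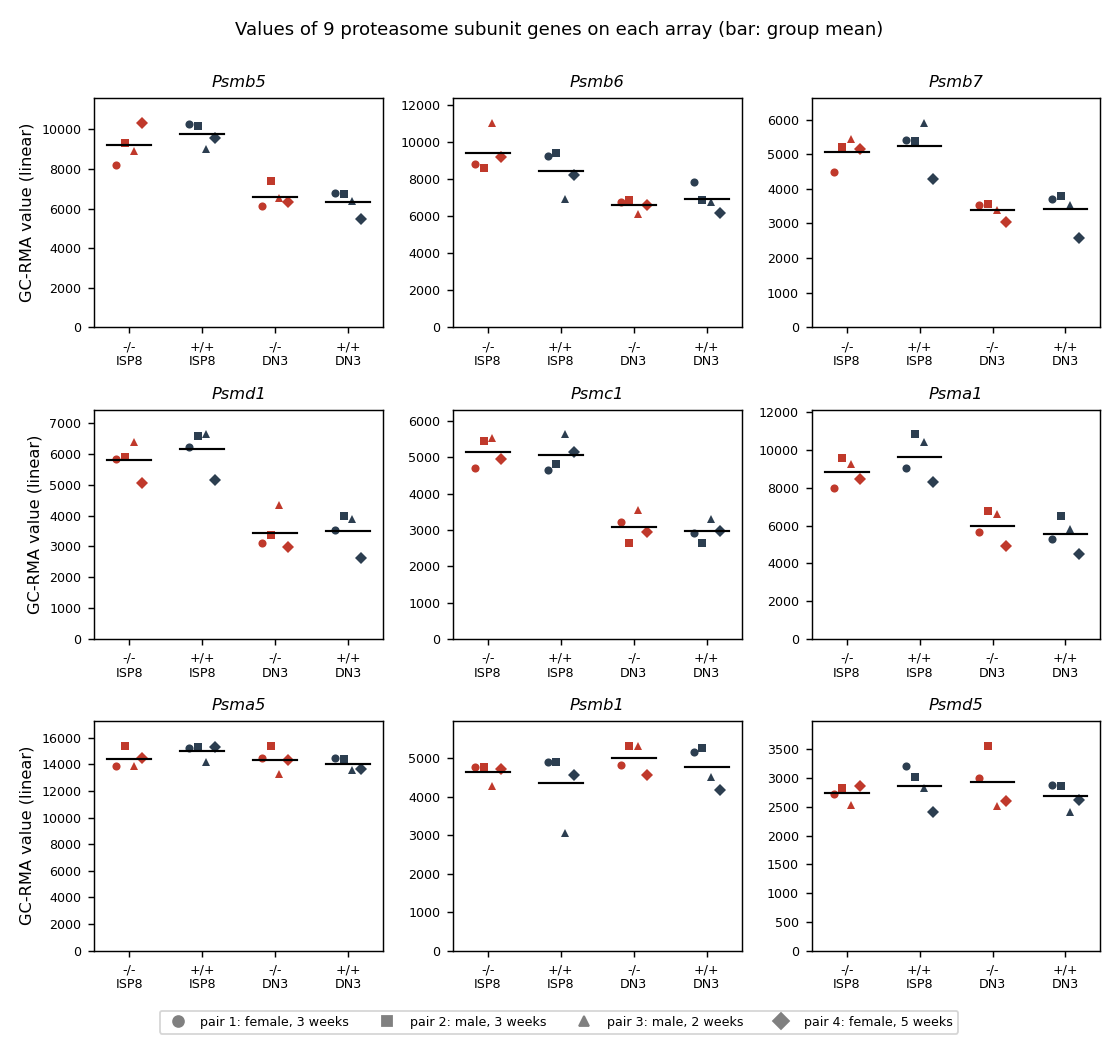
GC-RMA value on a linear scale (y axis, from 0) of 9 genes on each of the 16 arrays, by group (x axis: -/- for PKBalpha-/- and +/+ for PKBalpha+/+). Symbols mark the littermate pairs and bars the group means. Psmb5, Psmb7, Psmd1, Psmc1 and Psma1 show no overlap between ISP8 and DN3, and Psma5, Psmb1 and Psmd5 did not pass the test.

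Among the alpha ring genes, 6 of 8 were higher and 1 was lower, with a median change of 0.31. Psma1 changed most among those that were higher. It read 8004, 9612, 9281 and 8466 in PKBalpha-/- ISP8 and 9076, 10854, 10408 and 8293 in PKBalpha+/+ ISP8 cells, against 5658, 6772, 6625 and 4904 in PKBalpha-/- DN3 and 5304, 6522, 5828 and 4492 in PKBalpha+/+ DN3 cells. All ISP8 arrays lay above all DN3 arrays, with a change of 0.69 ± 0.05 (adjusted p = 2.70e-08). Psma7 (0.43), Psma4 (0.40), Psma3 (0.34), Psma6 (0.29) and Psma2 (0.28) were also higher without overlap. Psma5 ranged from 13865 to 15404 with a median of 14871 in ISP8 cells and from 13260 to 15416 with a median of 14367 in DN3 cells. Its change of 0.05 ± 0.04 did not pass (adjusted p = 0.319), and it was -0.10 after quantile normalization (adjusted p = 0.0479).

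Psma8, the testis subunit gene, was the single member that was lower. It read 69.0, 89.3, 127 and 107 in PKBalpha-/- ISP8 and 75.2, 61.4, 106 and 30.6 in PKBalpha+/+ ISP8 cells, against 136, 102, 249 and 179 in PKBalpha-/- DN3 and 99.98, 95.0, 101 and 101 in PKBalpha+/+ DN3 cells. The ranges overlapped, and the change of -0.70 ± 0.22 (adjusted p = 0.0188) did not pass without pair 1 (adjusted p = 0.0565), without pair 4 (-0.52, adjusted p = 0.0985) or after quantile normalization (-0.46, adjusted p = 0.111).

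Psmb11, the thymic epithelial subunit gene, did not pass the filter on low values over the 8 animals. It read 18.7, 21.9, 19.7 and 25.97 in PKBalpha-/- ISP8 and 1.71, 38.0, 34.4 and 33.6 in PKBalpha+/+ ISP8 cells, against 2.87, 2.11, 3.45 and 1.43 in PKBalpha-/- DN3 and 3.66, 1.38, 1.28 and 1.34 in PKBalpha+/+ DN3 cells. It was above 20 on 5 of the 16 arrays, all of them ISP8, and higher in ISP8 in 7 of 8 animals. Since all 8 DN3 values lay far under 20, no change is given. The epithelial transcription factor gene Foxn1 averaged 34.8 and 24.3 in PKBalpha-/- and PKBalpha+/+ ISP8 cells, against 22.2 and 30.0 in PKBalpha-/- and PKBalpha+/+ DN3 cells, and did not pass (0.57 ± 0.67, adjusted p = 0.542). It does not stand for the 11 epithelial markers, of which 1 was higher and 2 lower, with a median change of -0.30 and a range of -2.97 to 0.97. Their summed value was 3622 to 4142 in ISP8 and 2548 to 3500 in DN3 cells.

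Of the 3 assembly chaperones of the base, only Psmd9 was higher, by 0.55 ± 0.11 (adjusted p = 0.000642). It read 874, 647, 618 and 756 in PKBalpha-/- ISP8 and 956, 744, 583 and 622 in PKBalpha+/+ ISP8 cells, against 565, 539, 485 and 425 in PKBalpha-/- DN3 and 498, 492, 505 and 426 in PKBalpha+/+ DN3 cells, without overlap. Psmd10 changed by 0.01 ± 0.10 and Psmd5 by 0.00 ± 0.07, and neither passed. Whether these changes differ from that of Psmd9 was not tested.

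Several genes are measured by more than 1 probe set, which allows the change to be read more than once. Of the 38 probe sets not chosen, from 19 genes, 35 were tested, and 14 were higher, 2 lower and 19 did not pass. Over all probe sets tested, 17.5% were higher and 24.7% lower. The 12 of them with a mean log2 value of at least 10 were all higher, with a median of 0.45, against 39.9% of all probe sets of that level. The 2 that were lower belong to genes whose chosen probe set was higher. In Psma3, the second probe set averaged 194 and 197 in PKBalpha-/- and PKBalpha+/+ ISP8 cells, against 321 and 280 in PKBalpha-/- and PKBalpha+/+ DN3 cells, a change of -0.60 ± 0.15 (adjusted p = 0.00389). The chosen one read 16583, 19950, 17772 and 18423 in PKBalpha-/- ISP8 and 18626, 19989, 19132 and 18548 in PKBalpha+/+ ISP8 cells, against 14291, 15932, 15650 and 13818 in PKBalpha-/- DN3 and 13764, 14235, 15715 and 14465 in PKBalpha+/+ DN3 cells, so that every ISP8 array lay above every DN3 array. In Psmd9, the second probe set averaged 120 and 124 in PKBalpha-/- and PKBalpha+/+ ISP8 cells, against 194 and 228 in PKBalpha-/- and PKBalpha+/+ DN3 cells, a change of -0.74 ± 0.19 (adjusted p = 0.00523). What part of the transcript these probe sets detect was not analysed here. Conversely, for Psma5 and Psmd4 the chosen probe set did not pass but a further one was higher. In Psma5 this probe set averaged 7372 and 7720 in PKBalpha-/- and PKBalpha+/+ ISP8 cells, against 6577 and 6499 in PKBalpha-/- and PKBalpha+/+ DN3 cells (0.21, adjusted p = 0.00221), while the remaining one did not pass (-0.50, adjusted p = 0.101). In Psmd4 the one that was higher had means of 55.1 to 108 over the 4 groups (0.69, adjusted p = 0.0293), and the other further probe set, with means of 940 to 1020, did not pass (0.09, adjusted p = 0.482).

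**Figure D3:**
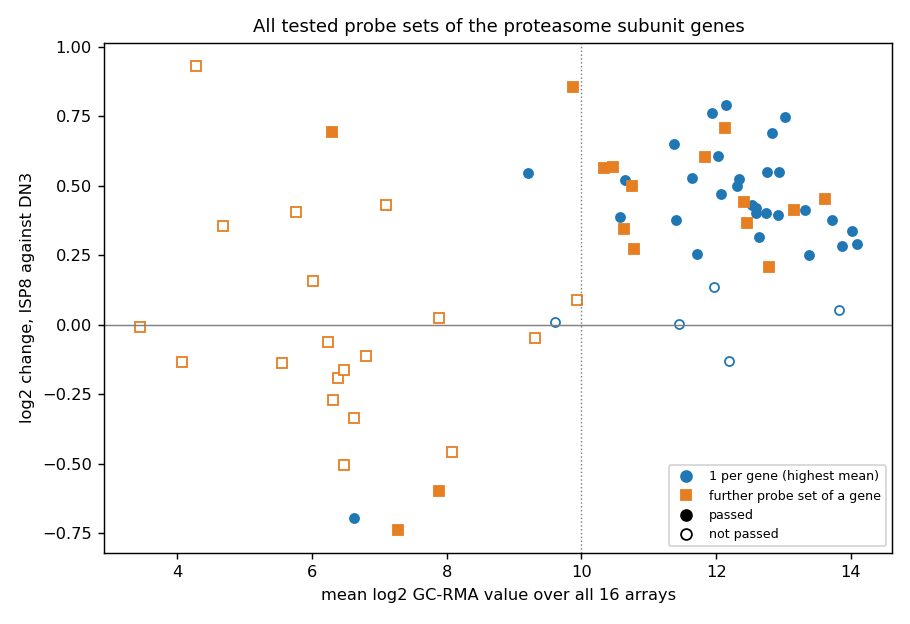
Change in ISP8 against DN3 cells on the log2 scale (y axis) against the mean log2 value over 16 arrays (x axis) for the 70 tested probe sets of the proteasome genes, with the chosen probe sets as circles, the further ones as squares, and filled symbols for those that passed. To the right of the dotted line at 10, all 12 squares are filled and above 0, against 39.9% higher among all probe sets of that level.

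The same comparison within each genotype gave similar counts. In PKBalpha-/- animals, 26 of 35 genes were higher and 0 lower (11.9% of all probe sets were higher and 16.2% lower), with a median of 0.37. In PKBalpha+/+ animals, 27 of 36 were higher and 0 lower (11.6% and 17.3%), with a median of 0.47. At an unadjusted limma p under 0.05, 1 gene was lower in PKBalpha-/- animals (Psma8, against 21.1% of all probe sets) and 0 in PKBalpha+/+ animals (against 22.5%). The catalytic genes changed by 0.48 (Psmb5), 0.51 (Psmb6) and 0.58 (Psmb7) in PKBalpha-/- animals, and by 0.62, 0.28 and 0.63 in PKBalpha+/+ animals.

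The difference between these changes was tested directly as the genotype effect in ISP8 minus that in DN3 cells. This fit had the animal as its block and did not pair the littermates, unlike the genotype tests within a subset. None of the 36 genes passed (limma, adjusted), 2 had an unadjusted p under 0.05, and over all 36835 probe sets 0% passed and 4.75% had an unadjusted p under 0.05. The median difference was -0.09, against 0.02 over all probe sets, and 29 of 36 genes lay below 0, against 47.2% of all probe sets and 55% of those of high level. By pair, the median difference was -0.15, -0.17, -0.03 and -0.08 in pairs 1 to 4. The 3 genes with the smallest p were Psmb3 (-0.35 ± 0.14), Psma1 (-0.24 ± 0.10) and Psmc4 (-0.41 ± 0.19), all with an adjusted p of 0.961 in limma. Psma1 was below 0 in 4 of 4 pairs, as were Psma6, Psma7, Psmb5, Psmc3 and Psmd12. These are 6 of 36 genes (16.7%), against 6.71% of all probe sets. Above 0 in every pair was 1 gene (2.78%), against 8.01%.

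To determine whether the loss of PKBalpha altered the proteasome genes within a stage, PKBalpha-/- cells were compared with those of their PKBalpha+/+ littermates. In ISP8 cells, 0 of 36 genes passed (0.0147% of all probe sets did), and 2 had an unadjusted p under 0.05 (6.08% of all probe sets). The median change was -0.06, against 0.02 over all probe sets, with a range of -0.33 to 0.62. In DN3 cells, 0 of 35 genes passed (0.0383% of all probe sets did), and 2 had an unadjusted p under 0.05 (4.83% of all). The median was 0.04, against -0.01 over all probe sets, with a range of -0.12 to 0.67. The median by pair was -0.12, -0.11, -0.05 and 0.05 in ISP8 and -0.05, 0.07, -0.02 and 0.13 in DN3 cells for pairs 1 to 4, so that the pairs fell on both sides of 0 in each subset.

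The genes with the smallest p in ISP8 cells were Psmb3, Psmd10 and Psmd7. Psmb3, a noncatalytic beta subunit, read 4738, 5681, 5791 and 5661 in PKBalpha-/- ISP8 cells, against 6457, 9465, 5509 and 6113 in PKBalpha+/+ ISP8 cells. It was lower in 3 of 4 pairs, the array at 9465 standing above the rest, with a change of -0.31 ± 0.11 (adjusted p = 0.796 in limma). Psmd10, known as gankyrin, read 645, 765, 743 and 650 in PKBalpha-/- ISP8 cells, against 852, 1170, 740 and 805 in PKBalpha+/+ ISP8 cells (-0.33 ± 0.13, adjusted p = 0.803 in limma). Psmd7, a lid subunit that pairs with the deubiquitinase, read 1203, 1585, 1723 and 1890 in PKBalpha-/- ISP8 cells, against 1908, 2548, 1932 and 1491 in PKBalpha+/+ ISP8 cells (-0.29, adjusted p = 0.825 in limma). In all 3 genes the PKBalpha+/+ array of pair 2 was the highest, and in all 3 the genotypes overlapped.

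In DN3 cells the genes with the smallest p were Psma8 (0.67 ± 0.27), Psmc4 (0.30 ± 0.12) and Psma1 (0.11 ± 0.07), each with an adjusted p of 0.972 in limma. The array values given above show Psma8 higher in 4 of 4 pairs, by 0.10 to 1.30, at levels up to 249. Psma1 was also higher in 4 of 4 pairs, which makes 2 of 35 genes (5.71%), against 5.51% of all probe sets. Lower in every pair was 1 gene (2.86%), against 6.98%. Psmc4 was higher in 3 of 4 pairs and lower in pair 3, where the PKBalpha+/+ array stood at 9938. Without pair 3 its change was 0.53 and passed (adjusted p = 0.00795 in limma), whereas its second probe set gave -0.08 over the 4 pairs. In that fit 0.0589% of all probe sets passed as higher, against 0.0177% with all pairs. Of the genes on chromosome 12, which also holds Akt1, Psmc1 (chr12:100110202-100123364) changed by 0.03 ± 0.07 in ISP8 and 0.06 ± 0.09 in DN3 cells, Psma3 (chr12:70969283-70995877) by -0.07 ± 0.06 and 0.04 ± 0.06, and Psma6 (chr12:55384222-55418459) by -0.10 ± 0.05 and 0.06 ± 0.06. None of them passed (limma). In ISP8 cells Psma3 and Psma6 had the lower value in the PKBalpha-/- animal of 4 of 4 pairs, as did Psmd1 on chromosome 1. In all, 3 of 36 genes (8.33%) were lower in every pair in ISP8 cells, against 6.71% of all probe sets. Higher in every pair were 0 of 36, against 7.96%.

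**Figure D4:**
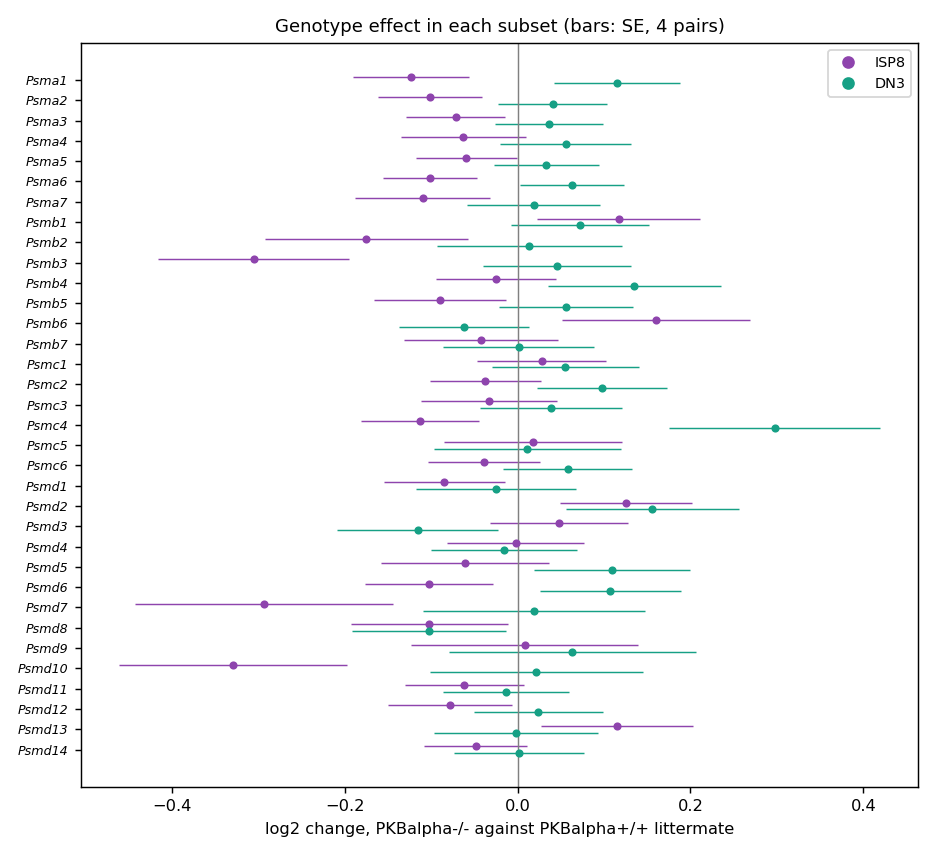
Genotype effect on the log2 scale (x axis, PKBalpha-/- against PKBalpha+/+ littermates, 4 pairs) in ISP8 and DN3 cells for 34 genes (y axis). Bars are standard errors of the limma fit, moderated over all probe sets tested. Psma8 (0.62 in ISP8 and 0.67 in DN3) and Psmb11 (tested in ISP8 only) are not drawn, and no value passed the test.

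Other genes of the pathway, chosen as lists with earlier results known, were examined in ISP8 against DN3 cells. The share to set beside the count of each list is 17.5% higher and 24.7% lower over all probe sets tested. The immunoproteasome genes did not share the direction of the constitutive ones: 0 of 3 were higher and 2 lower. Psmb10, which replaces Psmb7, averaged 1920 and 2116 in PKBalpha-/- and PKBalpha+/+ ISP8 cells, against 2897 and 3078 in PKBalpha-/- and PKBalpha+/+ DN3 cells (-0.57 ± 0.07, adjusted p = 5.58e-06, lower in 8 of 8 animals). Psmb9, which replaces Psmb6, averaged 2163 and 2087 in ISP8 against 2623 and 2926 in DN3 cells, PKBalpha-/- first (-0.40 ± 0.07, adjusted p = 0.000284, lower in 8 of 8 animals). Psmb8, which replaces Psmb5, changed by -0.06 ± 0.05 (adjusted p = 0.435).

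Of 4 activators and inhibitors measured, 3 were higher and 1 lower. Psme1, which encodes a subunit of the interferon-inducible PA28 activator, was lower by 0.43 on the log2 scale (-0.43 ± 0.06, adjusted p = 1.19e-05), whereas the nuclear activator genes Psme3 (0.62 ± 0.06) and Psme4 (0.36 ± 0.06) and the inhibitor gene Psmf1 (0.59 ± 0.09) were higher. The 26S subunit gene Sem1 was higher (0.28 ± 0.06). Of the 5 core assembly chaperones, Psmg1 (0.49) and Psmg3 (0.24) were higher, and Psmg2, Psmg4 and Pomp did not pass. Of 8 shuttles, deubiquitinases and ligases, 4 were higher: the deubiquitinases Uchl5 (0.66) and Usp14 (0.28) and the ubiquitin shuttles Rad23b (0.65) and Ubqln2 (0.47).

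Of 11 tested genes for the transcription of proteasome genes, 4 were higher and 2 lower, against 17.5% and 24.7% of all probe sets tested. Nfe2l2 (0.25), Bach1 (0.42), Nfyb (0.57) and Nfyc (0.39) were higher. Ngly1, whose product removes glycans from and so activates the Nfe2l1 factor, was lower by 0.75 on the log2 scale (-0.75 ± 0.07, adjusted p = 3.86e-07), as was the small Maf gene Mafk (-0.34 ± 0.11). Nfe2l1 itself changed by -0.27 ± 0.17 (adjusted p = 0.235), and Ddi1 was at or under 20 on all arrays. Uba6, an alternative ubiquitin-activating enzyme, was lower (-0.27 ± 0.07). By genotype, 0 genes of these lists passed in either subset (0.0147% of all probe sets did in ISP8 and 0.0383% in DN3 cells). Adrm1, Psme2, Ddi2, Ubb, Rps27a and Uba1 were not analysed here.

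**Figure D5:**
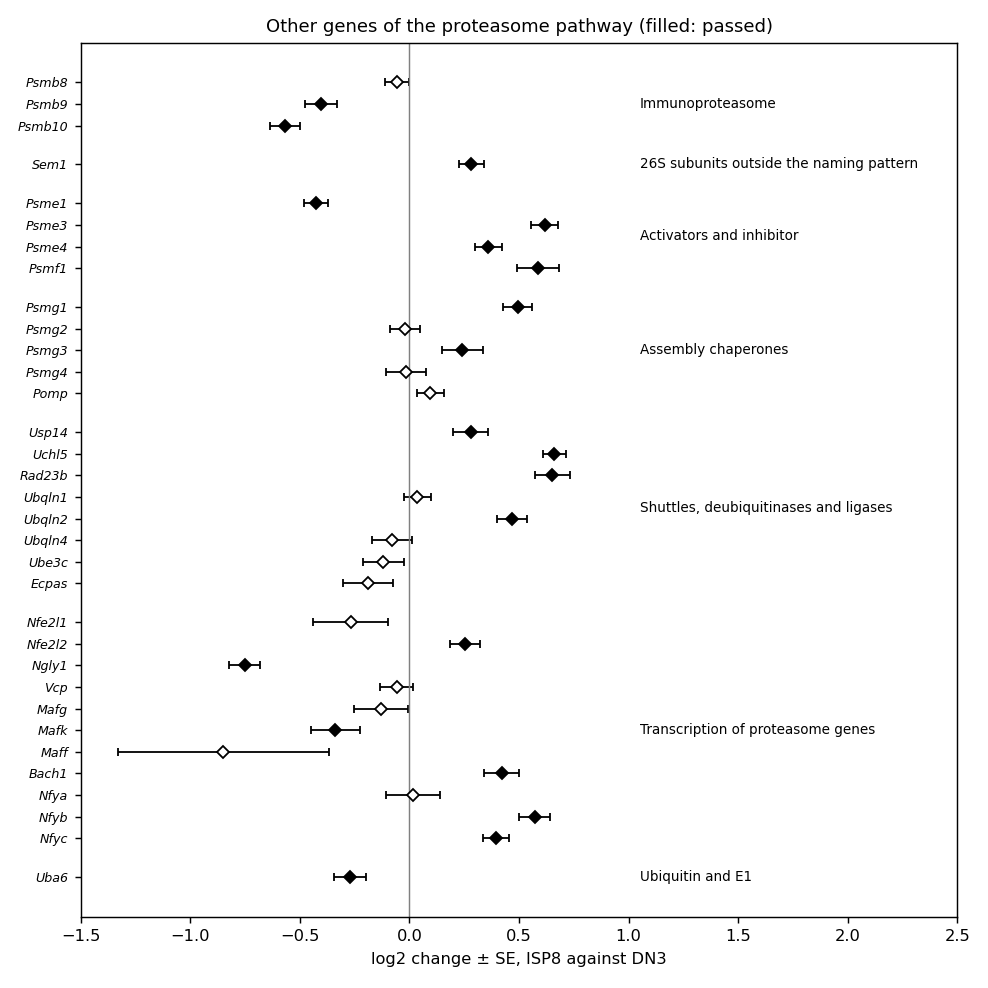
Change in ISP8 against DN3 cells on the log2 scale with its standard error (x axis) for 33 other genes of the pathway (y axis), grouped by role, filled where the change passed. Psmb9, Psmb10 and Psme1 lie left of 0, between -0.57 and -0.40, while Psme3, Psmf1, Uchl5 and Rad23b lie between 0.59 and 0.66.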

How the data were processed

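RNA of sorted cells was amplified in 2 cycles and hybridised to Affymetrix mouse genome arrays. The authors turned the array intensities into background-corrected, normalized GC-RMA values (Refiner 3.1), and these deposited intensity values, on a linear scale, were used as given after a log2 transformation without an added constant. Probe sets were named from the platform annotation: 34958 of 45101 had 1 gene symbol, 932 several and 9211 none, and only those with 1 symbol name a gene. The filter on low values asked for 1 array above 20 per animal (ISP8 against DN3) or per pair (genotype), in 6 or more of 8 animals, or 3 or more of 4 animals or pairs.

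Fits used limma 3.58.1 under R 4.3.3 (lmFit, eBayes with a trend, two-sided) over all probe sets tested, with the animal or the littermate pair as a block and Benjamini-Hochberg adjustment at 0.05. The script was tested on simulated data. The number of arrays, 4 per group, limits the precision. The pairing comes from the labels, which name each sample's littermate. Deviations from the group means correlated between littermates at 0.0807 to 0.194 for ISP8 and at 0.337 to 0.400 for DN3 cells, and at 0.117 to 0.296 between the subsets of an animal, against -0.247 to 0.0930 between different numbers. P values and standard errors rest on the spread between these animals, moderated by limma towards that of all probe sets of similar level. For a gene whose animals spread widely, both can be smaller than its own spread alone would give.

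The members, gene lists and motifs were chosen with earlier results of these data known. Genes given by array are the catalytic genes, Psmb11 and Psma8, the 8 with the largest change in all 8 animals, the 3 with the smallest p per genotype test, and those whose probe sets disagree. Further genes shown by array (Psmb1) were chosen after their values were seen. Marker lists covered DN3, ISP8, proliferation, cortical thymic epithelium, B cells, dendritic cells and macrophages, erythroid, NK and innate lymphoid, and mature T cells. Motifs were searched in RefSeq promoters (GRCm38.p6). Alternatives tried were quantile normalization, no block, robust moderation, a stricter filter (100) or none, adding 20 before the log2 transformation, averaging a gene's probe sets, leaving out probe sets ending in _s_at, _x_at or _a_at, pair means, the methods' t-test, and leaving out each pair. Figures were drawn with matplotlib 3.10.9.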

Additional observations from a re-analysis of the deposited data

Results flagged for a closer look

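Each of the 36 genes was looked at in each of the 4 groups for an array that stood apart from the other 3 of its group, 144 groups in all, of which 12 were marked. Chance alone marks about 1 in 20. In ISP8 cells, Psmb1 was lowest in pair 3 in both genotypes, at 4281 in PKBalpha-/- cells (the others 4729 to 4788) and 3055 in PKBalpha+/+ cells (4558 to 4905). Pair 3 was also lowest for Psma5 in PKBalpha+/+ ISP8 cells, at 14203 (15228 to 15350), and for Psmb3 in PKBalpha+/+ DN3 cells, at 3844 (4310 to 4369). Psmb3 was lowest in pair 1 of PKBalpha-/- ISP8 cells, at 4738 (5661 to 5791).

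Pair 4 was lowest for Psmc4, at 8404 (11036 to 11316), and Psmd3, at 2851 (4146 to 4392), in PKBalpha-/- ISP8 cells, for Psma4 in PKBalpha-/- DN3 cells, at 4975 (5613 to 5733), and for Psmd9 in PKBalpha+/+ DN3 cells, at 426 (492 to 505). Psma8 was lowest in pair 2 of PKBalpha+/+ DN3 cells, at 95.0, although the others lay close by, at 99.98 to 101. Psmb11 stood apart in pair 1 of PKBalpha+/+ animals in both subsets, at 1.71 in ISP8 cells (33.6 to 38.0) and 3.66 in DN3 cells (1.28 to 1.38), all at low levels.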

How the results depend on the processing

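In ISP8 against DN3 over both genotypes, the 30 calls kept their direction and side of the threshold with robust moderation, pair means, a stricter filter (100) or none, 20 added before the log2 transformation, and no replicate block (29 higher and 1 lower without the block, median 0.40). Quantile normalization moved the median of all probe sets by 0.10, to 0.03, and that of the members to 0.28 (0.25 in PKBalpha-/- and 0.32 in PKBalpha+/+ animals), 0.24 above the median of all, against 0.47 above it as deposited. It kept 28 of 30 calls, lost the lower call of Psma8, and called 2 other genes lower, Psma5 (-0.10) and Psmb1 (-0.25). It gave 51.3% of all calls as higher, against 41.4% as deposited, and called 20.1% of all probe sets tested lower. Psmd5 was then -0.044.

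The choice of probe set mattered for single genes. After averaging a gene's probe sets, 22 of 30 calls were kept, and Psma3 (-0.13), Psma5 (-0.081), Psmd7 (-0.070) and Psmd9 (-0.13) turned, as did Psmd7 by genotype in ISP8 cells (0.19), while the median in PKBalpha-/- animals was 0.30. Without the probe sets ending in _s_at, _x_at or _a_at, 2 genes were lower, Psma3 (-0.60), Psma5 (-0.50) and Psmd13 (-0.34) turned, and Psmc4 gave -0.079 by genotype in DN3 cells and 0.10 in the test of the difference. In PKBalpha-/- animals, 1 gene instead of 0 was lower under the filter at 100, the added constant, robust moderation, the mean of probe sets and without those endings.

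The methods' selection, which asks for at least a 1.5-fold change in most animals, left 3 genes higher and 0 lower over both genotypes (6.35% and 12.8% of all probe sets), 3 and 1 in PKBalpha-/- (6.28% and 11.1%) and 7 higher in PKBalpha+/+ animals (6.51%). The methods' t-test after Benjamini-Hochberg gave 6 genes higher in PKBalpha-/- (3.80% of all) and 13 in PKBalpha+/+ animals (3.47%). Unadjusted, an alternative chosen after seeing the data, it gave 1 lower in PKBalpha-/- animals (17% of all), 1 higher by genotype in DN3 cells (Psma1; 1.90%), 1 lower in ISP8 cells (2.40%) and 4 lower in the test of the difference (2.59%). The cause of these shifts was not tested.

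Leaving out a pair gave 0 to 1 genes lower over both genotypes, against 21% to 23% of all probe sets. In PKBalpha-/- animals 0 to 1 were lower, against 13% to 14% of all, with a median of the members of 0.31 to 0.38. By genotype in DN3 cells 0 to 1 were higher, Psmc4 without pair 3 (0.0589% of all probe sets were higher in that fit). Psmd10 ranged from -0.069 (without pair 2) to 0.070 (without pair 1), and Psmd5 from -0.038 (without pair 3) to 0.045 (without pair 2). Values near the floor, as in Psmb11 and Psma8, limit what can be said of these genes.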
